A study of Mus musculus with 4 samples.

Results

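Keratins are the intermediate filament proteins of epithelial cells. The 10 genes described here are the luminal keratins Krt7, Krt8, Krt18 and Krt19 and the basal and stress keratins Krt5, Krt14, Krt15, Krt17, Krt6a and Krt6b. They were taken as every probe set whose annotated gene symbol was exactly one of these names, which gave 17 probe sets (6 luminal, 11 basal and stress) of 45037 on the array, or 10 of 18193 annotated genes. A keratin filament is built from a type I and a type II chain. In the mammary gland Krt8 and Krt18 pair in the inner, luminal cells, with Krt7 and Krt19, and Krt5 and Krt14 pair in the outer, basal and myoepithelial cells. Krt6a, Krt6b and Krt17 are known from skin and its appendages, where they are induced by wounding and other stress, and Krt15 from basal cells of stratified epithelia.

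The samples were mammary tumors of female C57BL/6 mice carrying the polyoma virus middle T oncogene (PyV-mT), taken when the animals were 110 days old and the tumors had been present for 14 days. Tumors of St6gal1-/- mice (null) were set against those of wild-type littermates, and both genotypes carried the oncogene. St6gal1 encodes the enzyme that adds alpha2-6-linked sialic acid to N-glycans, and the study asked how its loss bears on the differentiation of the carcinomas. RNA was measured on 4 Affymetrix Mouse Genome 430 2.0 arrays. Each array held a pool of 3 tumors from 3 mice, and set 1 and set 2 each paired 1 null pool with 1 wild-type pool. The promoter behind the oncogene and the part of St6gal1 that the null allele lacks are not given in the sources used here.

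Some facts of the arrays bear on the values. The deposited MAS5 signals are linear intensities scaled to the same trimmed mean on every array, so a signal is relative to the rest of its array. The brighter St6gal1 probe set read 2337 and 3642 in the null pools, against 2330 and 2796 in the wild-type pools, so it showed no loss in the pools labelled null. A probe set outside the deleted part checks nothing, and the genotypes and all directions below rest on the labels. The ratio of 3' to 5' Gapdh signal, which rises as RNA is degraded, was 0.873 and 2.13 in the null pools of sets 1 and 2, against 0.869 and 1.57 in the wild-type pools. The same ratio for beta-actin was 1.53 and 2.12 in the null pools, against 1.63 and 1.96 in the wild-type pools, so the genotypes of set 2 lay further apart by Gapdh than by beta-actin. Their part in the results below was not tested, and values are therefore also given for each set.

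The luminal keratins were slightly higher in the null tumors in both sets, Krt5 was lower, and the other basal and stress keratins did not move as one class. Of the 12 keratin probe sets bright enough to test, 3 passed a limma adjusted p of 0.05 over all probe sets, 2 higher in null (Krt19 and one of 3 Krt8 probe sets) and 1 lower (Krt5). Over all 22519 probe sets tested, 7.36% passed, 4.09% higher and 3.27% lower. By the brightest probe set of each gene, 2 of 8 genes tested passed, Krt19 and Krt5. Log2 ratios below are null over wild type on the log2(signal + 44) scale, with the limma standard error and n = 2 pools per genotype. That error and the 95% intervals rest mostly on probe sets of like intensity (13.5 prior degrees of freedom against 1 residual). They do not measure the spread between the pools of a gene.

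Krt8 and Krt18, the type II and type I chains of the simple epithelial filament, were described first because their proteins form one filament. In the RefSeq tables (GRCm38.p6) their start sites lie 23874 bases apart on chromosome 15, on opposite strands. Krt5, the chain that went the other way, lies on chromosome 15 as well. The region around the start site of these 3 genes is shown, 250 bases before and 50 after it, at chr15:102004293-102004592 on the minus strand for Krt8, chr15:102027966-102028265 on the plus strand for Krt18 and chr15:101712856-101713155 on the minus strand for Krt5. Capitals mark matches, on either strand, to the motif TATAAA of the TATA box, the motif GGGCGG of the GC box, the motif TGANTCA bound by AP-1, the motif AGATAA bound by GATA factors and the motif GCCNNNGGC bound by AP-2.
Krt8: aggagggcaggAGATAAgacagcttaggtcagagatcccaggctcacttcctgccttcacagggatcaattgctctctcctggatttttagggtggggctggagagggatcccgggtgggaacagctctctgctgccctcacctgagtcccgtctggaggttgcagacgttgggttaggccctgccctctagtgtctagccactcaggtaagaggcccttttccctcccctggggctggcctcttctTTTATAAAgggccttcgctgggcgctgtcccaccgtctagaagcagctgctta
Krt18: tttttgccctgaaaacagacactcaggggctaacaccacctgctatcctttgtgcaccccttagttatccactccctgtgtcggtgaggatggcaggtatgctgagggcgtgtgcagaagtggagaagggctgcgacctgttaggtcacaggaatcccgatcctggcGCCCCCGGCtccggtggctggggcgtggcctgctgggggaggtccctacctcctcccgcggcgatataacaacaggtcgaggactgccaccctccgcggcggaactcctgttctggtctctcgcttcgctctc
Krt5: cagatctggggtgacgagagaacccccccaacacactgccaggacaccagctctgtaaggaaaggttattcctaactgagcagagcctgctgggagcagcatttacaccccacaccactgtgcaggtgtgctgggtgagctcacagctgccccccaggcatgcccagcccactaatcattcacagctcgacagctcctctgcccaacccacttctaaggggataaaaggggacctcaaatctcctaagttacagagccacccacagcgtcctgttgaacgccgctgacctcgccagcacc
The Krt8 window held AGATAA, found in 11.2% of the 32851 windows of the table, and overlapping TATAAA matches on both strands, found in 13.6%. The first bases of the TATAAA matches lay at -1 and -3 from the annotated start site, so they overlapped it. The Krt18 window held GCCNNNGGC, found in 16.6%. The Krt5 window held none of the 5 motifs, of which GGGCGG was in 35.7% and TGANTCA in 7.81% of all windows. These matches are letters in a window and were not tested as binding sites. Of the 10 members, 5 had a window, and those of Krt7 and Krt14 are not shown. The Krt7 window, on chromosome 15 as well, held matches to the GC box and AP-2 motifs. The Krt14 window, on chromosome 11, held none of the 5 motifs.

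Krt8 was measured by 3 probe sets that gave like values. The brightest (1420647_a_at) read 116412 and 150715 in the null pools of sets 1 and 2, against 101213 and 114827 in the wild-type pools. Both null pools lay above both wild-type pools, although the null pool of set 1 exceeded the wild-type pool of set 2 by little. Its log2 ratio was 0.30 ± 0.10, or 1.23-fold (95% interval 1.06 to 1.42), with a limma adjusted p of 0.0830. Without the set term, it was 0.11 without the null pool of set 2, 0.21 without the wild-type pool of set 1 and 0.48 without the null pool of set 1. The second probe set (1435989_x_at) read 100978 and 128922 in the null pools, against 86204 and 95407 in the wild-type pools. It passed the threshold, at 1.26-fold with an adjusted p of 0.0486. The third (1423691_x_at) did not, at 1.28-fold with an adjusted p of 0.0513. The 3 probe sets thus stood on either side of the threshold with folds from 1.23 to 1.28, and the suffix _x_at marks probe sets that can also bind other transcripts.

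Krt18 read 139209 and 139844 in the null pools, against 127565 and 114320 in the wild-type pools. The genotypes did not overlap, and the 2 null pools were close to each other. The log2 ratio was 0.21 ± 0.10, or 1.16-fold (95% interval 0.00020 to 0.42 on the log2 scale), and did not pass (limma adjusted p = 0.243). Without the wild-type pool of set 2, and without the set term, it was 0.13. Set against each other within the same arrays, the log2 ratio of Krt8 exceeded that of its partner Krt18 by 0.08 in set 1 and 0.10 in set 2. With quantile normalization both genes passed, Krt8 with a limma adjusted p of 0.00405 and Krt18 with 0.0190. By their brightest probe sets, each gene passed in only this 1 of 9 alternative fits of all 4 arrays.

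Krt19, a type I chain without the usual tail domain, rose in the null tumors. Its signals were 45078.5 and 48221.9 in the null pools, against 36398 and 35885.6 in the wild-type pools. The genotypes were well apart beside the spread within each, and the sets differed little. The rise was 1.29-fold (log2 0.37 ± 0.08, limma adjusted p = 0.0142), with log2 ratios of 0.31 in set 1 and 0.43 in set 2. The call ended without the set term (adjusted p = 0.847) and without the intensity trend (0.306). Krt7, a type II chain of ducts and other simple epithelia, read 16031 and 16491 in the null pools, against 14523 and 13781 in the wild-type pools. It did not pass, at 1.15-fold (95% interval 1.01 to 1.31, limma adjusted p = 0.200), though its genotypes did not overlap either.

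**Figure D1:**
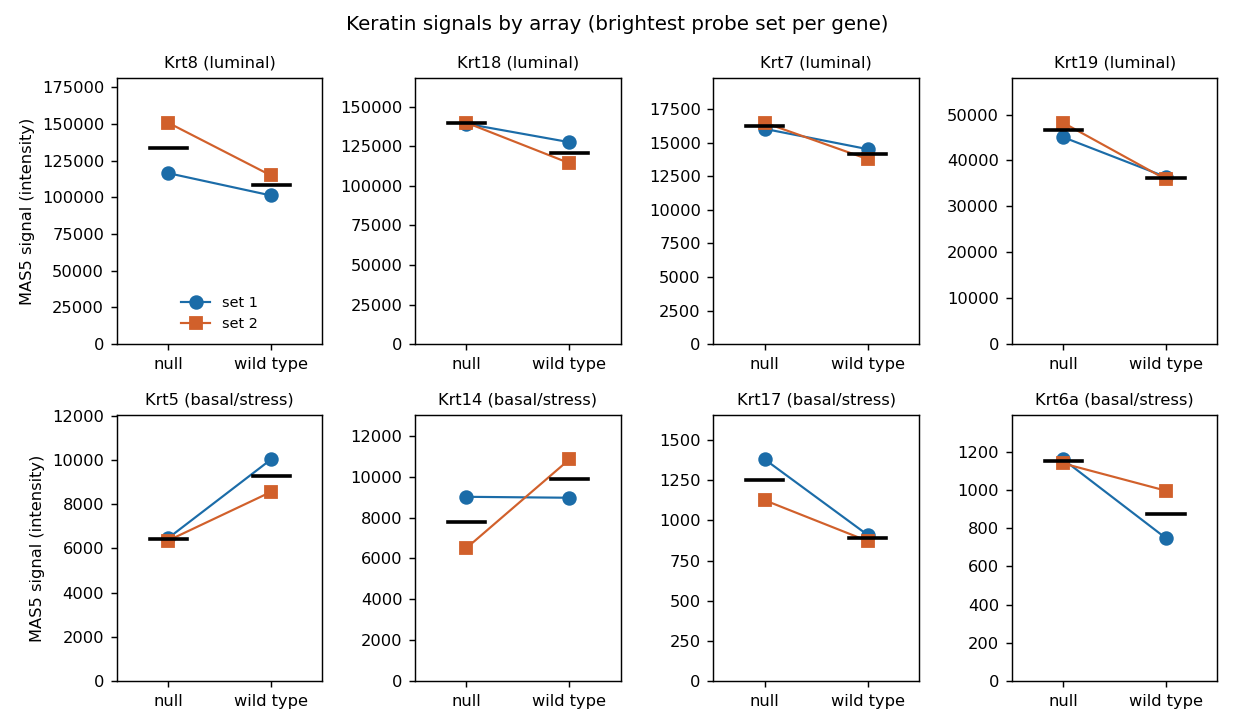
MAS5 signal (linear intensity, y axes from 0) of the brightest probe set of the 8 keratins tested, in the null pools (left) and the wild-type pools (right), with lines joining the pools of a set and black bars at the mean of 2 pools. The luminal keratins slope down to wild type in both sets, Krt5 slopes up to 10029 and 8559 in the wild-type pools, and the Krt14 lines cross.

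Across the class, 6 of 6 luminal probe sets were higher in null in both sets, as were 28.3% of all probe sets tested, and in all 6 the null pools lay above both wild-type pools, as in 15.1% of all probe sets. Of these 6, 3 belong to Krt8, so they stand for 4 genes. The median log2 ratio of the 4 genes was 0.25, beside -0.03 over all probe sets tested. It was 0.17 in set 1 and 0.34 in set 2, each beside a median over all probe sets of -0.03 and -0.02. The fitted log2 ratios ran from 0.20 for Krt7 to 0.37 for Krt19, with standard errors from 0.08 to 0.10, and their order was not tested.

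Krt5, the type II keratin of basal cells, fell in the null tumors. It read 6464 and 6356 in the null pools, against 10029 and 8559 in the wild-type pools. The null pools were nearly equal and both lay below both wild-type pools. Krt5 fell by 0.53 on the log2 scale (SE 0.10, 0.693-fold, 95% interval 0.597 to 0.805, limma adjusted p = 0.00418), by 0.63 in set 1 and 0.43 in set 2. This call too ended without the set term (adjusted p = 0.706) and without the intensity trend (0.240). Within the same arrays the log2 ratio of Krt5 minus that of Krt8 was -0.83 in set 1 and -0.82 in set 2. This change of Krt5 against Krt8 was nearly the same in both sets and was not tested. The change of Krt14, by its brightest probe set, against Krt18 was not, at -0.12 in set 1 and -1.02 in set 2, and was not tested either.

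Krt14, the type I partner of Krt5, was less clear. Its brightest probe set (1423935_x_at), whose suffix marks one that can also bind other transcripts, read 9013 and 6507 in the null pools. The wild-type pools read 8967 and 10843. The sets disagreed, with log2 ratios of 0.0074 in set 1 and -0.73 in set 2, so the fitted ratio of -0.36 ± 0.14 (limma adjusted p = 0.133) rests on set 2. A second probe set (1460347_at) read 5803 and 3468 in the null pools, against 6943 and 4846 in the wild-type pools. It was lower in null in both sets, with log2 ratios of -0.26 and -0.48, but the genotypes overlapped and it did not pass (log2 -0.37 ± 0.12, adjusted p = 0.0737). This probe set also differed between the sets, with a log2 ratio of set 2 over set 1 of -0.63 ± 0.12 (adjusted p = 0.00144), the only one of the 12 keratin probe sets past the threshold for that contrast, which 23.5% of all probe sets passed. The log2 ratio of Krt5 minus that of Krt14 was -0.64 in set 1 and 0.31 in set 2 with the brightest Krt14 probe set, a difference that was not tested.

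Krt17 and Krt6a, the stress keratins above the filter, had ratios above 1 on their brightest probe sets, without passing the test. Krt17 read 1380 and 1126 in the null pools, against 910 and 872 in the wild-type pools. The genotypes did not overlap, yet the ratio did not pass, at 1.38-fold (95% interval 0.947 to 2.01, limma adjusted p = 0.334). The brighter Krt6a probe set (1422784_at) read 1160 and 1139 in the null pools, against 747 and 996 in the wild-type pools, at 1.32-fold (95% interval 0.887 to 1.95, adjusted p = 0.452). A second Krt6a probe set (1422783_a_at) read 741 and 698 in the null pools, against 712 and 737 in the wild-type pools, a log2 ratio of -0.01 ± 0.30. Neither Krt6a probe set showed a change past the threshold, and the gap between their log2 ratios was within their standard errors added together. Within the same arrays the log2 ratio of Krt17 exceeded that of Krt5 by 1.21 in set 1 and 0.78 in set 2, a difference that was not tested.

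The other 5 keratin probe sets were not tested. They were the only probe sets of Krt15 and Krt6b and further ones of Krt14, Krt17 and Krt6a, and read between 39.3 and 539 on every array. All 5 lay within the range of 13 probe sets for Y-linked genes, which read up to 565 in these female mice and mark an unspecific level. Krt15 read 92.1 and 54.3 in the null pools, against 117 and 539 in the wild-type pools. Krt6b, a close relative of Krt6a, read 185 and 41.7 in the null pools, against 177 and 234 in the wild-type pools. No level and no difference can be given for either gene. The median log2 ratio of the 4 basal and stress genes tested was 0.02, midway between Krt14 and Krt6a, with Krt5 and Krt14 below 0 and Krt17 and Krt6a above it. Of the 6 basal and stress probe sets tested, 2 were lower in null in both sets (Krt5 and one of Krt14), as were 34.8% of all probe sets tested. Another 2 were higher in both (Krt17 and one of Krt6a), as were 28.3% of all. For Krt5 both null pools lay below both wild-type pools, as in 16.9% of all probe sets. For Krt17 and the brighter Krt6a probe set both null pools lay above both wild-type pools, as in 15.1% of all probe sets. The luminal median minus the median of the basal and stress genes was 0.24, but -0.12 in set 1 and 0.46 in set 2. Krt14 entered these medians by its brightest probe set, and its second probe set was lower in null in both sets.

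**Figure D2:**
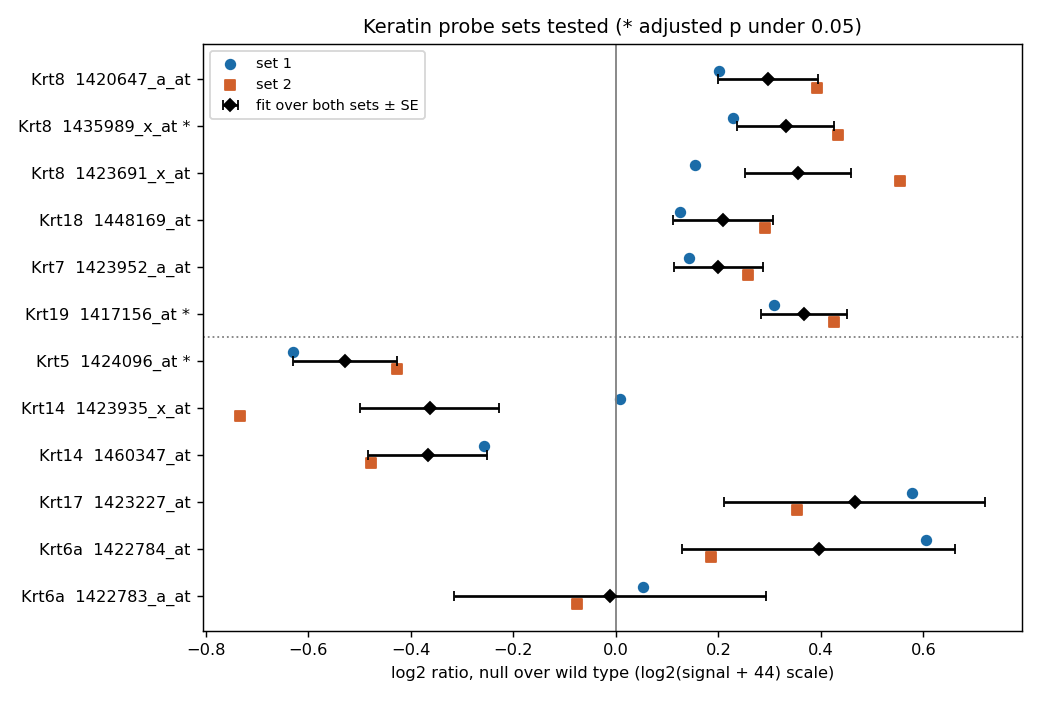
Log2 ratio of null over wild type for the 12 keratin probe sets tested, as the fit over both sets with its standard error (black) and in set 1 (blue) and set 2 (orange); stars mark an adjusted p under 0.05 and the dotted line parts luminal from basal and stress keratins. All 6 luminal probe sets lie right of 0 in both sets, Krt5 and one Krt14 probe set lie left of 0 in both, and the sets fall on opposite sides of 0 for one probe set each of Krt14 and Krt6a.

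Other keratins add one clear change. Of 34 further keratin genes, 31 were on the array and 8 were tested. Of these 8, 1 rose and 0 fell, beside 4.09% and 3.27% of all probe sets tested, with a median log2 ratio of 0.26. The one that rose was Krt23, a type I keratin, which read 6530 and 7533 in the null pools, against 4093 and 3849 in the wild-type pools (1.76-fold, log2 0.81 ± 0.12, limma adjusted p = 4.26e-04). The other 7, Krt4, Krt10, Krt42, Krt78, Krt79, Krt80 and Krt81, had log2 ratios from -0.18 to 0.47 and did not pass. Of the 23 that were too dim to test, 21 lay within the unspecific level on every array. Among those 21 was Krt16, the type I chain that pairs with Krt6a. Its signals were 390 and 290 in the null pools, against 27.6 and 34.3 in the wild-type pools. As for Krt15 and Krt6b, no level and no difference can be given for Krt16 from signals within the unspecific level.

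Among the genes that anchor keratin filaments no change passed. Of 15 desmosome, hemidesmosome and plakin genes tested, limma called 0 in either direction (2 at an unadjusted p under 0.05), beside 7.36% of all probe sets. Their median was -0.04, with a range from -0.59 for Col17a1, a hemidesmosomal collagen, to 0.17 for Jup, plakoglobin. Dsp, desmoplakin, which ties keratins to desmosomes, read 30774 and 31814 in the null pools, against 30389 and 30394 in the wild-type pools. Of 16 general epithelial genes, 0 rose and 2 fell, beside 4.09% and 3.27% of all probe sets tested, with a median of -0.11. Spint1, a protease inhibitor, fell by 0.52 (limma adjusted p = 0.00267) and Grhl2, an epithelial transcription factor, by 0.44 (adjusted p = 0.00888). Epcam and Cdh1, which mark epithelial cells, had log2 ratios of -0.18 ± 0.08 and -0.08 ± 0.08 and did not pass. Elf3 and Cldn7 went the other way, at 0.42 ± 0.14 and 0.23 ± 0.08, and did not pass either. Of the 16 genes, 2 were higher and 9 lower in null in both sets, beside 28.3% and 34.8% of all probe sets tested. The fitted log2 ratios of 14 of the 16 lay below that of every luminal keratin, and relative to the median of this list the luminal keratin median was 0.36.

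Lineage genes outside the keratins gave calls in both directions. Of 17 luminal genes tested, 5 rose and 3 fell, with a median of -0.14, and 11 were lower and 5 higher in both sets. Prom1, a surface protein of luminal cells, rose 2.28-fold. Pgr, which encodes the progesterone receptor, rose 1.64-fold and the ETS factor gene Spdef 1.58-fold, with Cldn4 and Ly6d, a tight junction protein and a surface protein, at 1.44-fold and 1.36-fold. Cited1, a transcriptional coregulator of luminal cells, fell by 1.13, Cd14 by 0.44 and Hey1 by 0.35. Esr1, Gata3 and Foxa1 were lower in both sets and did not pass, with log2 ratios of -0.40 ± 0.14, -0.26 ± 0.08 and -0.08 ± 0.09. Of 16 basal and myoepithelial genes, 1 rose and 5 fell, with a median of -0.18, and 12 were lower and 1 higher in both sets. Over all probe sets tested, 4.09% rose and 3.27% fell past the threshold, and 34.8% were lower and 28.3% higher in both sets. The luminal and basal lists were not tested against each other. Mylk, Oxtr and Myh11, of contraction and its trigger, fell by 0.88, 0.85 and 0.78, and Lama3 and Lamb3, the laminin chains beneath basal cells, by 0.74 and 0.56. Trp63, the transcription factor known to drive Krt5 and Krt14 in basal cells, had a log2 ratio of -0.43 ± 0.13 and did not pass (limma adjusted p = 0.0719). Actg2, a smooth muscle actin, was the one that rose, 1.70-fold. Acta2, Cnn1 and Tagln of the same list did not pass, with log2 ratios of -0.18 ± 0.09, -0.13 ± 0.12 and -0.04 ± 0.08. Acta1, which was counted in the skeletal muscle list below as well, was at 0.20 ± 0.16 and did not pass.

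The tumors also differed in markers of other tissues. In bulk tumor RNA, fewer cells of a type and less RNA per cell cannot be told apart. Of 12 fibroblast genes 12 rose, with a median of 1.19, and their summed signal was 432107 and 498258 in the null pools, against 204148 and 224734 in the wild-type pools. Of 5 adipocyte genes tested 4 rose, with a median of 1.41 and summed signals of 61475 and 54671 in the null pools, against 25099 and 22536 in the wild-type pools. Of 9 skeletal muscle genes 3 rose, of 9 endothelial and pericyte genes 3 rose, and of 7 leukocyte genes 1 rose. Past the same threshold, 4.09% of all probe sets tested rose. The part of these tissues in the keratin values was not tested.

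Skin was checked for as another source of keratins. Of 16 genes of squamous and skin differentiation, 8 were tested. Of these, 2 rose and 0 fell, beside 4.09% and 3.27% of all probe sets tested, with a median of 0.02. Summed signals over the list were 27966 and 27170 in the null pools, against 23468 and 24117 in the wild-type pools. Sprr1a, a cornified envelope protein, rose 2.10-fold and Dmkn, dermokine, 1.68-fold. Of the 8 tested, 4 were higher and 3 lower in null in both sets, beside 28.3% and 34.8% of all probe sets tested. Tgm1 was among the lower, at 781 and 571 in the null pools, against 1219 and 909 in the wild-type pools. Sfn was lower in both sets too (log2 -0.11 ± 0.15), and the log2 ratios of Cnfn had opposite signs (-0.58 in set 1, 0.46 in set 2). Tgm1, Sfn and Cnfn did not pass. Lor, loricrin, of the cornified envelope, read 1088 and 1228 in the null pools, against 1296 and 1237 in the wild-type pools. Sbsn, suprabasin, read 5492 and 6175 in the null pools, against 5317 and 5552 in the wild-type pools. Calml3, a calmodulin-like protein, read 7495 and 8393 in the null pools, against 7101 and 7648 in the wild-type pools. Lor, Sbsn and Calml3 lay above the unspecific level on every array. The 8 genes that were not tested, among them Ivl, involucrin, and Flg, filaggrin, lay within that level on every array, as did Krt1, the keratin of differentiating epidermis. The part of skin in the keratin values was not tested. Krt10, its partner, read 1706 and 2549 in the null pools, against 2229 and 2447 in the wild-type pools.

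**Figure D3:**
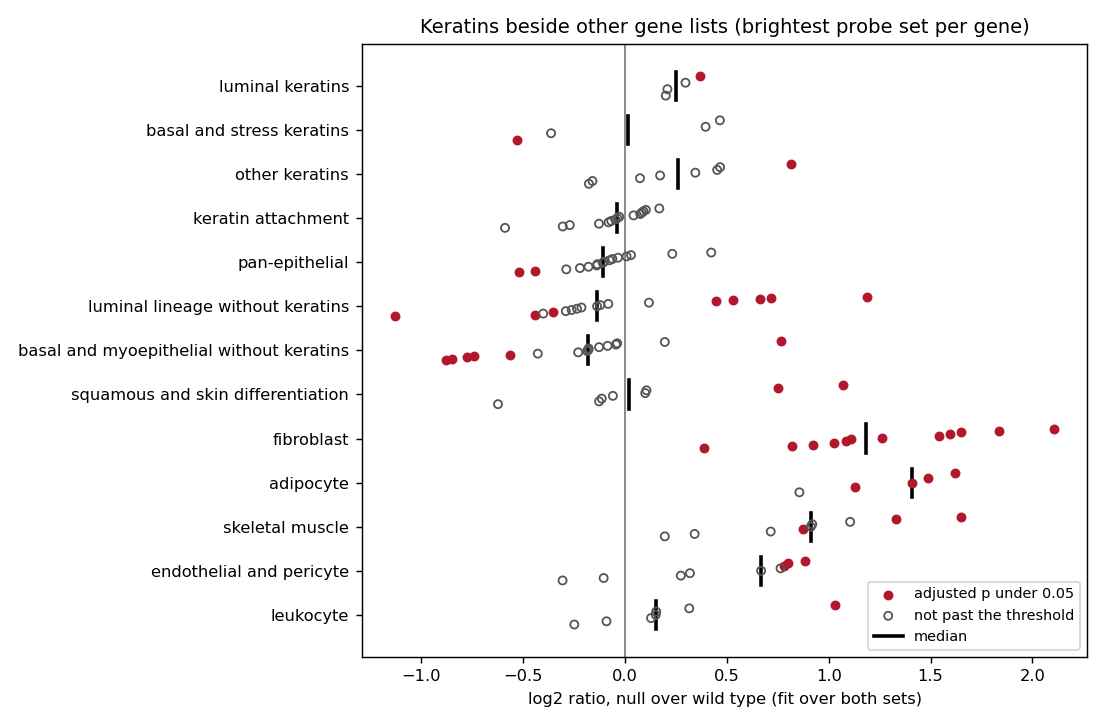
Log2 ratio of null over wild type (fit over both sets) of each gene tested in the keratin classes and in lists of other keratins, filament attachment, epithelial lineages and other tissues; filled points have an adjusted p under 0.05 and black bars are medians. The luminal keratins lie between 0.20 and 0.37, the basal and stress keratins on both sides of 0, and the fibroblast list has a median of 1.19.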

How the data were processed

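The values were linear MAS5 intensities, 1 per probe set and array, made by the authors per the submitters' processing notes (version not given in the sources used here). All 4 arrays had a mean of 2500.01 after trimming 2% at each end, so they were used as deposited. Per the labels' protocols, 6 ug of total RNA from 100 mg of tissue was labelled. Of 45101 probe sets, 64 controls were left out. The probe annotation gave 34945 probe sets 1 symbol, 932 several and 9160 none, and 0 symbols were updated by the RefSeq table. Promoter sequences are RefSeq's (GRCm38.p6).

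Intensities were turned into log2(value + 44), 44 being the 10th percentile, which understates changes where signals are dim. The probe sets whose mean log2 value was at or above the median (22519) were fitted in limma 3.58.1 (R 4.3.3; lmFit, eBayes with intensity trend, set and genotype as terms, 1 residual degree of freedom), with Benjamini-Hochberg adjustment over all of them and a threshold of 0.05. The sets come from the series' design text. Deviations from genotype means correlated at 0.612 within each set, the same for both by construction. The pools are independent per the series' design text, and their number limits precision. The 2 sets' effects could not be tested against each other.

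The members, lists, motifs and settings were chosen with earlier results of these data known. The rule named all member probe sets, St6gal1, tested keratins, and up to 6 called genes per list. Other genes, named without a call or below the largest 6, were chosen after their values were seen. These were Epcam, Cdh1, Elf3, Cldn7, Dsp, Jup, Col17a1, Trp63, Cd14, Hey1, Lor, Sbsn, Calml3, Tgm1, Sfn and Cnfn. Esr1, Gata3, Foxa1, Acta1, Acta2, Cnn1 and Tagln were further genes named so. Ivl, Flg, Krt1 and Krt16, which were not tested, were chosen in the same way. Alternatives were other normalizations, pseudocounts and filters, no set term, no trend, arrays left out, probe sets averaged by gene, and, added later, each set alone for single genes and values relative to the general epithelial list.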

Additional observations from a re-analysis of the deposited data

Results flagged for a closer look

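For 2 keratin probe sets the log2 ratios of the 2 sets of pools had opposite signs, a difference that was not tested because each set holds 1 pool per genotype. For the brightest Krt14 probe set the log2 ratio of null over wild type was 0.0074 in set 1 and -0.73 in set 2. For the second Krt6a probe set it was 0.053 in set 1 and -0.075 in set 2, both small beside its standard error of 0.30. The Gapdh 3' to 5' ratio of set 2 was 2.13 for null tumors and 1.57 for wild-type tumors, and that of beta-actin was 2.12 for null and 1.96 for wild-type tumors.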

How the results depend on the processing

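Krt5 and Krt19 kept their direction in each set alone and in every alternative fit, and passed the threshold in 7 of 9 fits of all 4 arrays other than the one reported, with adjusted p from 0.00142 to 0.706 for Krt5 and from 0.00808 to 0.847 for Krt19. Quantile normalization called 4 members, adding Krt8 and Krt18. With no replicate block limma called 0 members (2 at an unadjusted p under 0.05) and 0 probe sets in all (1261 unadjusted), and without the intensity trend 0 members (3 unadjusted) and 0 probe sets (3512 unadjusted). Leaving out 1 array, which also drops the set term, gave 5 to 26 calls in all and 0 members (0 to 1 unadjusted), with log2 ratios from -0.64 to -0.41 for Krt5, 0.32 to 0.42 for Krt19, 0.11 to 0.48 for Krt8, 0.13 to 0.29 for Krt18, 0.16 to 0.24 for Krt7, 0.32 to 0.61 for Krt17, 0.20 to 0.59 for Krt6a and -0.60 to -0.13 for Krt14. In set 1 alone Krt14 was at 0.0074, against -0.36 in the fit. The basal and stress median was -0.45 and the luminal minus basal difference 0.70, both with no filter on low values, where Krt15 and Krt6b enter within the unspecific level, and with the filter at the 75th percentile, where Krt17 and Krt6a drop out. That difference ranged from 0.05 to 0.43 with 1 array left out. The luminal median ranged from 0.19 to 0.32 with 1 array left out.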
